A study of Mus musculus with 6 samples.

Results

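The genes examined here encode the sensors, the adaptor and the protease of the inflammasome, the protein complex with which cells of the innate immune system detect bacteria. They were the bacterial sensors Naip1, Naip2, Naip5 and Naip6, their partner Nlrc4, the separate sensor Nlrp3, the adaptor Pycard and the protease Casp1. The list was chosen with the values of these same lungs known, so the differences of these genes between genotypes are given as a description, without p-values. Every probe set (the group of short probes that measures a transcript on the array) annotated to exactly 1 of the listed genes was used. That gave 8 probe sets for 6 of the 8 genes, out of 34945 single-gene probe sets for 18193 genes. Pycard had 3 probe sets, and Naip2, Naip5, Naip6, Nlrp3 and Casp1 had 1 each. Naip1 and Nlrc4 were named by no single-gene probe set in the annotation used and were not analysed here.

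RNA came from whole lungs dissected from mouse embryos at E16.5, a late fetal stage. One group was Hopx-null (genotype Hopx -/-, lacking Hopx, which encodes a small atypical homeodomain protein; n = 3), and the other was wild-type (Hopx +/+, n = 3). Both genotypes were on a strain background that the labels give only as mixed, and each lung was hybridised to its own single-channel Affymetrix array. The labels call the lungs biological replicates, and the parents, the litters and the strain of origin of any chromosome segment in a given embryo are not stated.

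NAIP proteins bind bacterial products directly in the cytosol. In mice, Naip5 and Naip6 recognise flagellin, Naip2 the inner rod protein of the type III secretion apparatus and Naip1 its needle protein, and each then recruits Nlrc4 into a complex that activates caspase-1. Nlrp3 responds instead to cell damage, ion fluxes and crystals and reaches caspase-1 through the adaptor ASC, the product of Pycard. Caspase-1 cleaves the precursors of the cytokines encoded by Il1b and Il18 and the pore-forming protein encoded by Gsdmd. The Naip genes lie side by side in a cluster of recent duplicates, the cluster differs in sequence and content between inbred strains, and a permissive Naip5 allele makes macrophages of the A/J strain susceptible to Legionella.

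The promoters of the 3 measured Naip genes are shown because these genes are near copies, and because the genotypes overlapped at Naip2 and not at Naip5, whose promoters share long runs. Whether the promoters bear on those values was not tested. The windows are reference sequence, and the sequence of these lungs, of mixed background, was not read. Each sequence is from RefSeq, build GRCm38.p6, minus strand, and covers 250 bases before to 50 bases after a transcription start, written 5′ to 3′. The windows lie at chr13:100247287-100247586 for Naip5, chr13:100202073-100202372 for Naip2 and chr13:100316567-100316866 for Naip6. Capitals in Naip5 and Naip2 mark the runs of at least 12 bases that these 2 sequences share exactly.
Naip5: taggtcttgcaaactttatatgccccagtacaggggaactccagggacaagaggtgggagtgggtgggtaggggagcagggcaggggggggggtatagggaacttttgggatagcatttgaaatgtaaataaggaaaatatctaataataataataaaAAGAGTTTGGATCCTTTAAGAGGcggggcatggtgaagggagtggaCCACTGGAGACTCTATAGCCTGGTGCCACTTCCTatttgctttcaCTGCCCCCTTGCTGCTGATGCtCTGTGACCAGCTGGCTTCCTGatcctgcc
Naip2: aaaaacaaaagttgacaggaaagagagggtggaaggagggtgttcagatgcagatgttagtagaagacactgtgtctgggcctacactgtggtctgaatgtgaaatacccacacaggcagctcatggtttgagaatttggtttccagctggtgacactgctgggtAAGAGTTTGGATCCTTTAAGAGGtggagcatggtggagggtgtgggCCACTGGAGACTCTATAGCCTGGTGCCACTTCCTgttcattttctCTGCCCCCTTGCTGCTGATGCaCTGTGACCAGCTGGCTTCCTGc
Naip6: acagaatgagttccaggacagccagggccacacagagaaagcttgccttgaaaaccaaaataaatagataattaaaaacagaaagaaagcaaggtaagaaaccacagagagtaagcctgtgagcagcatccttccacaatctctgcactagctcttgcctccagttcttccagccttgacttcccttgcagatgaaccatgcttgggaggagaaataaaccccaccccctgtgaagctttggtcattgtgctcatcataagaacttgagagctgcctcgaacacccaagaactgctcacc
The Naip5 and Naip2 windows shared 4 such runs that held 99 bases, with a longest run of 34, all in the downstream part of the window. In a global alignment, 73.1% of 275 aligned bases were identical between them. The Naip6 window shared no run of 12 bases with either, and was identical to Naip5 at 60.2% and to Naip2 at 60.3% of aligned bases. Naip1, which has no probe set here, shared 1 run of 14 bases with Naip5 and no run of 12 with Naip2. Its window was identical to Naip5 at 63% and to Naip2 at 72.5% of aligned bases. No such share is given for unrelated windows. The letters AGGAAGTG, a common form of the binding motif of ETS factors such as the myeloid factor PU.1 (encoded by Spi1), were searched on both strands. A match was present in the Naip5 and Naip2 windows, within the longest shared run, 20 and 13 bases before the start. Matches also lay in the Nlrc4 window 11 bases and in the Pycard window 45 bases before the start, so 4 of the 9 windows of the 8 listed genes held the letters. Of all 32851 promoter windows, 4.07% held them. The letters were chosen after the windows had been read, so nothing is drawn from these shares. The Pycard window, chr7:127993818-127994117, minus strand, is printed with the match in capitals because Pycard is the adaptor and carries the same letters as the Naip5 and Naip2 windows.
Pycard: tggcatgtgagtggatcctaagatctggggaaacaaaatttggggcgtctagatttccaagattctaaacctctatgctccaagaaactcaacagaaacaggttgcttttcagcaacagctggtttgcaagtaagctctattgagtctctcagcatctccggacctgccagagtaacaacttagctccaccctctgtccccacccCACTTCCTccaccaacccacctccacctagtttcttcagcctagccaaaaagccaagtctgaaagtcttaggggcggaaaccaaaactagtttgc
A motif of the interferon regulatory factors, searched on both strands, had a match in 0 of the 9 windows and in 3.44% of all windows. A match describes letters only and is not a site, and no match says only that the letters are not in these windows.

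Arrays correlated at 0.991 to 0.995 within a genotype and at 0.989 to 0.995 between genotypes. Both Hopx probe sets were lower in every Hopx-null lung. The s_at probe set read 4.59, 4.59 and 4.96 in Hopx-null lungs, against 10.96, 10.59 and 10.41 in wild-type lungs (limma eBayes, Benjamini-Hochberg adjusted p = 0.000375). The a_at probe set still read 10.64, 10.35 and 10.47 in Hopx-null lungs, against 12.50, 12.44 and 12.26 in wild-type lungs (limma, adjusted p = 0.0228), and where either lies relative to the deleted part of the gene was not examined. All 12 lung markers were above the lower quartile at their brightest probe sets, and of their 20 probe sets 11 were higher and 9 lower in Hopx-null lungs, with 0 passing limma and 0 at an unadjusted p under 0.05. Their differences lay between -0.23, for the transcription factor gene Nkx2-1, and 0.34, for the dimmer probe set of Tbx5. Y-linked genes averaged 2.56 to 2.60 in Hopx-null lungs and in wild-type lungs 2.62 for replicate 1, 6.67 for replicate 2 and 6.69 for replicate 3, so Y-linked signal was present in wild-type replicates 2 and 3 only. Xist, the transcript of X inactivation, read 12.65, 12.68 and 12.48 in Hopx-null lungs at its brightest probe set. In wild-type replicates 1 to 3 it read 12.22, 6.43 and 5.84. The Hopx-null lungs and wild-type replicate 1 thus read as female and wild-type replicates 2 and 3 as male. Sex and genotype are therefore partly confounded in these lungs. The signal of 3′ over 5′ control probe sets was highest in Hopx-null replicate 3, at 1.51 log2 units for actin where the other 5 lungs lay between 1.15 and 1.25. All values are RMA-normalised and read as log2, so a difference of 1 is a doubling. The lower quartile of the arrays, where signal is close to background, was 4.24 to 4.30 and the median 6.67 to 6.72.

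Naip5, the flagellin sensor, read higher in every Hopx-null lung than in any wild-type lung, and no other gene of the list was as far apart. Its probe set (1421525_a_at) read 7.57, 7.53 and 7.30 in Hopx-null replicates 1 to 3, against 6.59, 6.62 and 6.95 in wild-type replicates 1 to 3. The groups did not overlap: the lowest Hopx-null lung, replicate 3, stood 0.35 above the highest wild-type lung, also replicate 3. Means were 7.47 ± 0.15 in Hopx-null lungs and 6.72 ± 0.20 in wild-type lungs (SD, n = 3 each), a log2 difference of 0.75 (SE 0.13) or 1.68-fold. The SE here and below is the moderated one of limma eBayes. It borrows spread from all probe sets and does not follow from the printed SDs alone. The gap between the groups was as wide as the whole spread among wild-type lungs, 0.35, and wider than the spread among Hopx-null lungs, 0.27. Leaving out each lung in turn, the Naip5 difference lay between 0.68 and 0.86. Set against wild-type replicate 1, the wild-type lung without Y-linked signal, the Hopx-null mean was 0.87 higher. That is a comparison with 1 lung, and the part of sex in the Naip5 values was not tested.

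Naip2, the rod-protein sensor, whose promoter shares the printed runs with Naip5, did not separate the genotypes. Its probe set (1460273_a_at) read 7.11, 7.03 and 6.92 in Hopx-null lungs, against 6.67, 6.51 and 7.23 in wild-type lungs. Wild-type replicate 3 was the highest lung of all, above the 3 Hopx-null lungs, while the other wild-type lungs were the lowest. The means were 7.02 ± 0.10 in Hopx-null lungs and 6.80 ± 0.38 in wild-type lungs (SD, n = 3 each), a log2 difference of 0.22 (SE 0.19). That value rests on wild-type replicates 2 and 3, since it was 0.44 once wild-type replicate 3 was left out and 0.08 once wild-type replicate 2 was.

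Naip6, the second flagellin sensor, followed another pattern. Its probe set (1427434_at) read 7.56, 7.56 and 7.90 in Hopx-null lungs, against 7.41, 7.21 and 7.78 in wild-type lungs. In both genotypes replicate 3 was the highest lung, and wild-type replicate 3 lay above Hopx-null replicates 1 and 2. The log2 difference was 0.20 (SE 0.17), and leaving out 1 lung gave 0.36 (wild-type replicate 3), 0.08 (wild-type replicate 2) and 0.09 (Hopx-null replicate 3). The order of the lungs thus differed among the 3 neighbouring genes, with Naip5 lowest and Naip6 highest in replicate 3 among Hopx-null lungs. Probe sequences were not used here, so how far a probe set of 1 Naip gene also reads its near copies, or is weakened by a strain difference under its probes, was not tested.

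**Figure D1:**
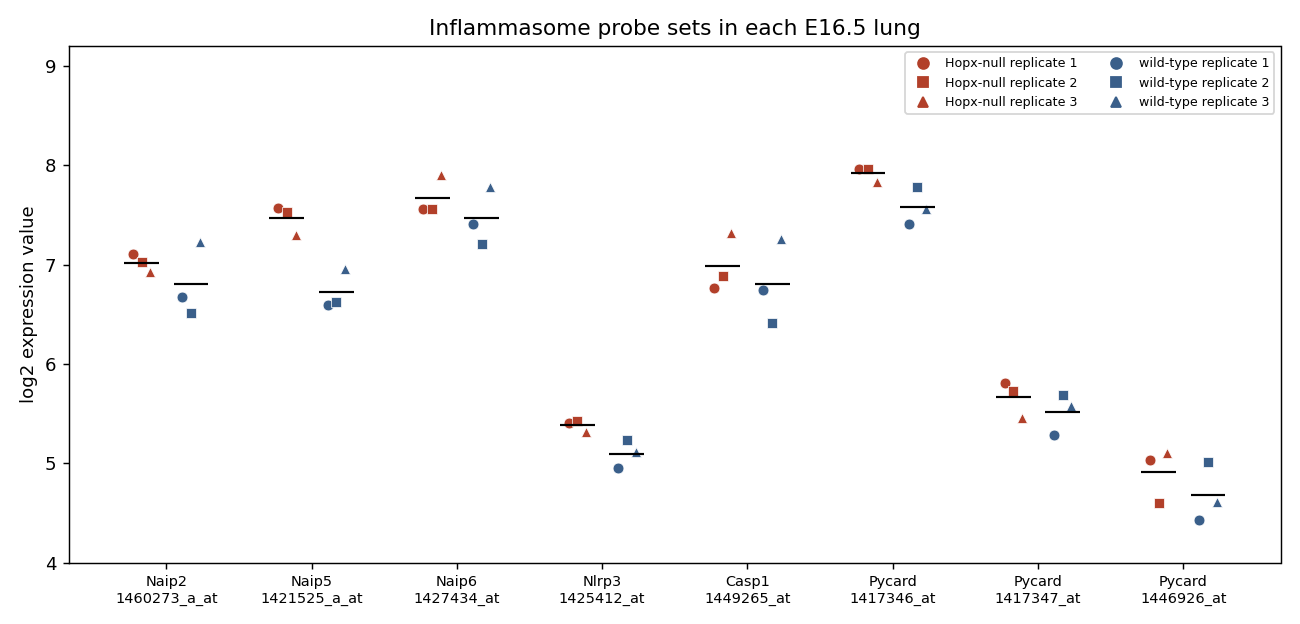
Log2 expression value (vertical axis) of each of the 8 inflammasome probe sets in the 3 Hopx-null lungs (red, left) and the 3 wild-type lungs (blue, right), with marker shape giving the replicate and black lines the group means. Naip5 shows the widest gap, with Hopx-null lungs at 7.30 to 7.57 and wild-type lungs at 6.59 to 6.95, while wild-type replicate 3 lies among the Hopx-null lungs in Naip6 and Casp1 and above them in Naip2. Heights of different probe sets are not comparable with each other.

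Nlrp3, the sensor that works without NAIP proteins, was read at a low level by its probe set (1425412_at), between the lower quartile and the median of the arrays. Its values were 5.41, 5.43 and 5.31 in Hopx-null lungs, against 4.95, 5.23 and 5.11 in wild-type lungs. Every Hopx-null lung was above every wild-type lung, by 0.09 at the nearest. The log2 difference was 0.29 (SE 0.10), with a range of 0.21 to 0.35 over the lungs left out in turn.

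Pycard, the adaptor that links Nlrp3 to caspase-1, was read by 3 probe sets that did not behave alike. The brightest (1417346_at) read 7.96, 7.96 and 7.83 in Hopx-null lungs, against 7.41, 7.78 and 7.56 in wild-type lungs. These groups did not overlap, with 0.04 between the nearest lungs, Hopx-null replicate 3 and wild-type replicate 2, and a log2 difference of 0.33 (SE 0.12). The second (1417347_at) read 5.81, 5.73 and 5.46 in Hopx-null lungs, against 5.28, 5.69 and 5.58 in wild-type lungs. The third (1446926_at) read 5.03, 4.60 and 5.10 in Hopx-null lungs, against 4.43, 5.01 and 4.61 in wild-type lungs. Both dimmer probe sets overlapped between genotypes, with log2 differences of 0.15 (SE 0.14) and 0.23 (SE 0.20), and wild-type replicate 1 was the lowest lung at all 3. Without wild-type replicate 1 the 3 differences were 0.24, 0.04 and 0.10, though the remaining wild-type lungs all read as male and the Hopx-null lungs as female.

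Casp1, the protease on which the sensors converge, varied more among lungs of 1 genotype than between genotypes. Its probe set (1449265_at) read 6.76, 6.88 and 7.32 in Hopx-null lungs, against 6.74, 6.41 and 7.26 in wild-type lungs. Replicate 3 was the highest lung of each genotype and the groups overlapped almost wholly. The log2 difference was 0.19 (SE 0.24). Leaving out 1 lung gave 0.41 for wild-type replicate 3, 0.02 for Hopx-null replicate 3 and -0.01 for wild-type replicate 2. The 6 lungs stood in nearly the same order for Casp1 as for Naip6: both had Hopx-null replicate 3 first, wild-type replicate 3 second, wild-type replicate 1 next to last and wild-type replicate 2 last.

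All 8 probe sets had a positive difference, with a range of 0.15 to 0.75 and a median of 0.22, where 51.4% of all 45037 probe sets were positive and their median was 0.01. The 3 Pycard probe sets read 1 gene and all share the same 6 lungs, so these are not 8 independent observations. In the fit across the whole table, 0 of the 8 passed limma (eBayes, Benjamini-Hochberg over all 45037 probe sets, threshold 0.05), against 0.00444% of all probe sets, which were the 2 of Hopx. The 3 that stood wholly above wild-type, in Naip5, Nlrp3 and the brightest of Pycard, compare with 5.6% of all probe sets, and 0 stood wholly below, against 4.54%. For scale, 0.955% of all probe sets had an absolute difference at least as large as that of Naip5. Since the list was chosen on this contrast, these counts describe the choice. Every member had a mean above the lower quartile of the array means, and 5 of 8 were above their median. The differences of the 8 probe sets are drawn with the range that leaving out each lung gives.

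**Figure D2:**
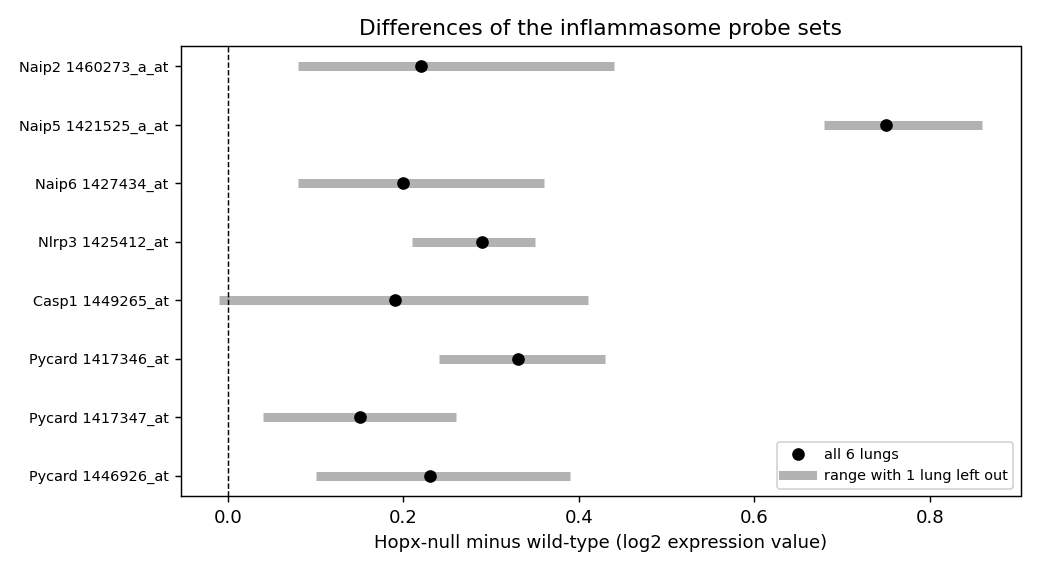
Difference between Hopx-null and wild-type lungs (horizontal axis, log2 expression value) for the 8 inflammasome probe sets, with all 6 lungs (black points) and the lowest to highest value when 1 lung was left out (grey bars). Naip5 lies at 0.75 with a bar of 0.68 to 0.86, apart from the other bars, and the bar of Casp1 reaches -0.01.

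Genes next to the Naip cluster were set beside it because the cluster differs between inbred strains and the background of these lungs was mixed. The 10 measured genes on each side, in the gene order of GRCm38.p6, had 36 probe sets, of which 12 were higher and 24 lower in Hopx-null lungs, with a median log2 difference of -0.04. None passed limma (eBayes, Benjamini-Hochberg over all probe sets), and 1 of 36 had an unadjusted p under 0.05, against 4.77% of all probe sets. Of the 36, 0 stood wholly above wild-type and 2 wholly below, against 5.6% and 4.54% of all probe sets. The 2 were a probe set of Bdp1 and that of Marveld2. Marveld2, a gene of tricellular tight junctions and the 1 with the low unadjusted p, read 9.44, 9.66 and 9.67 in Hopx-null lungs, against 9.95, 9.88 and 9.92 in wild-type lungs. Its log2 difference was -0.33 (95% interval -0.56 to -0.10; limma, adjusted p = 0.878), so it did not pass. The nearest measured gene before the cluster, Smn1, the survival motor neuron gene, differed by -0.08 (95% interval -0.31 to 0.16), and the nearest after it, the tight-junction gene Ocln, by 0.01 (95% interval -0.29 to 0.30) at its brightest probe set. At each gene's brightest probe set, the largest positive differences were 0.43 for the kinetochore gene Cenph (95% interval -0.43 to 1.28), 0.21 for Mccc2, a subunit of a leucine-breakdown enzyme (95% interval -0.08 to 0.50), and 0.16 for Serf1 (95% interval -0.19 to 0.50). Cenph rests on wild-type replicate 1, which read 5.67 where the other wild-type lungs read 6.82 and 7.08. Its difference was -0.0032 without that lung, a comparison of lungs that read as female with lungs that read as male. On the negative side of the same brightest probe sets, the neuropeptide gene Cartpt followed Marveld2 with -0.31 (95% interval -1.55 to 0.93) and Pik3r1, a regulatory subunit of phosphoinositide 3-kinase, with -0.27 (95% interval -0.56 to 0.03). Over all 36 probe sets the lowest difference was -0.34, at another probe set of Pik3r1. The strain of origin of the segment was not tested.

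**Figure D3:**
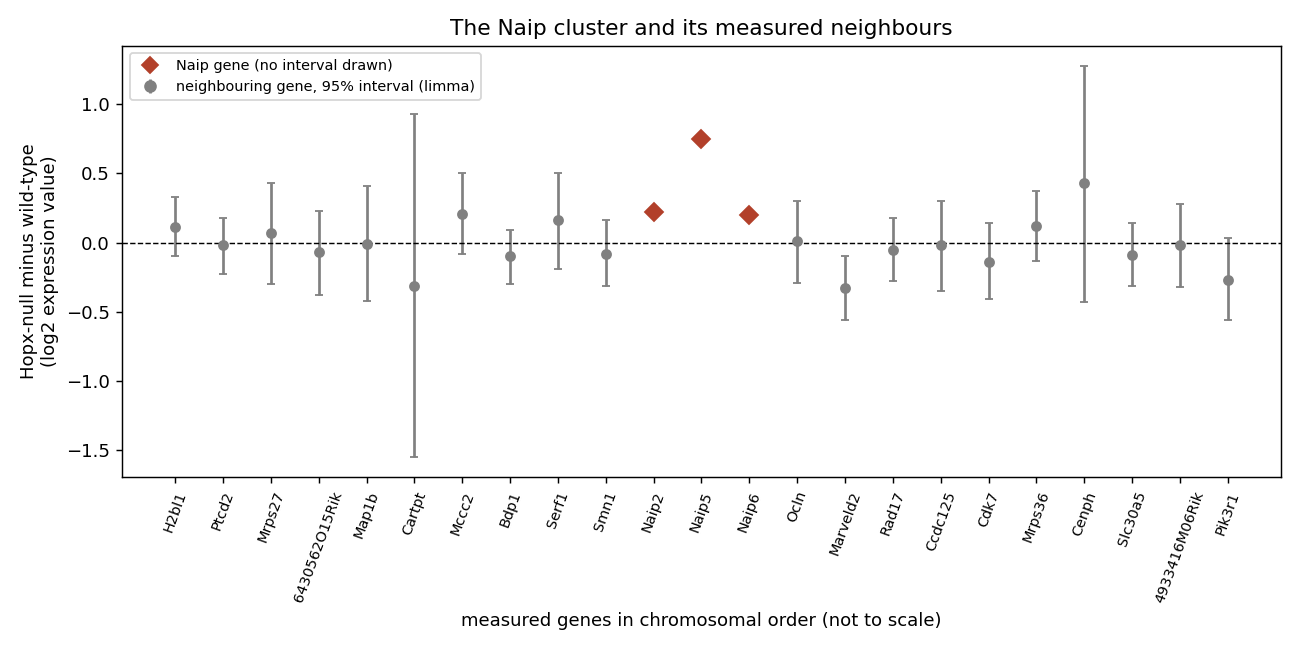
Difference between Hopx-null and wild-type lungs (vertical axis, log2 expression value) for the 3 measured Naip genes (red diamonds) and 10 measured genes on each side (grey points with 95% intervals from limma), in chromosomal order and not to scale, with the brightest probe set of each gene. Naip5 at 0.75 stands above its neighbours in the cluster, Naip2 at 0.22 and Naip6 at 0.20, and the flanking genes range from -0.33 to 0.43.

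The rest of the pathway showed no common direction. Of 40 further genes of inflammasome and related signalling, 35 were measured with 63 probe sets. In Hopx-null lungs 31 of these read higher and 32 read lower, with a median log2 difference of 0.00. None passed limma (eBayes, Benjamini-Hochberg over all probe sets), 4 had an unadjusted p under 0.05 (Il18, 2 probe sets of Il1rn and the dimmer of Il18rap), against 4.77% of all probe sets. Of the 63, 6 stood wholly above wild-type and 4 wholly below, against 5.6% and 4.54% of all probe sets.

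Among the cytokines, Il18, which caspase-1 matures, had the largest positive difference at the brightest probe sets. It read 10.33, 10.38 and 10.49 in Hopx-null lungs, against 9.68, 10.07 and 9.92 in wild-type lungs, without overlap. The log2 difference was 0.51 (95% interval 0.22 to 0.79; limma, unadjusted p = 0.00446, adjusted p = 0.878), so it did not pass. The other caspase-1 substrates showed less: Il1b differed by 0.08 (95% interval -0.45 to 0.60) and Gsdmd by 0.07 (95% interval -0.16 to 0.29). Il1rn, the natural antagonist of the interleukin receptor that Il1b engages, read 8.45, 8.68 and 8.48 in Hopx-null lungs, against 8.20, 8.26 and 8.29 in wild-type lungs at its brightest probe set, a log2 difference of 0.29 (95% interval 0.06 to 0.51; limma, adjusted p = 0.878). Il1rn's 2 other probe sets differed by 0.56 and 0.08. Il18rap, a subunit of the Il18 receptor, lay in the other direction at -0.30 (95% interval -0.99 to 0.40) at its brighter probe set and at -0.44 at the dimmer one, which lay below the lower quartile. The difference at the brighter one rests on wild-type replicate 3 and was 0.0076 without that lung.

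Among sensors and regulators, Irf8, a myeloid transcription factor known to drive Naip expression in mouse macrophages, read 8.47, 8.44 and 8.67 in Hopx-null lungs, against 8.37, 8.37 and 7.62 in wild-type lungs. Its log2 difference of 0.41 (95% interval -0.10 to 0.92; limma, adjusted p = 0.878) rests on wild-type replicate 3, without which it was 0.16. A second, dimmer Irf8 probe set differed by 0.57 (95% interval -0.04 to 1.18; limma, adjusted p = 0.878), the largest positive difference of the list, with overlap between genotypes and wild-type replicate 3 again lowest, at 5.51. That lung was the highest wild-type lung for Naip2, Naip5 and Naip6 and the lowest for Irf8. This describes 1 lung, and a link between Irf8 and the Naip values was not tested. Tlr5, the cell-surface flagellin receptor, differed by 0.24 (95% interval -0.08 to 0.55) and Aim2, the sensor of cytosolic DNA, by -0.11 (95% interval -0.36 to 0.14). Casp4, the sensor protease for bacterial lipopolysaccharide, differed by -0.23 (95% interval -0.90 to 0.44), with wild-type replicate 3 highest at 7.98. Without that lung the Casp4 difference was 0.08. The largest negative differences were those of Nlrc5, an activator of class I histocompatibility genes, at -1.04 (95% interval -2.25 to 0.17), and of Gsdme, a pore-forming relative of Gsdmd, at -0.36 (95% interval -0.76 to 0.03). Nlrc5 read 5.42, 5.46 and 5.19 in Hopx-null lungs, against 6.67, 5.17 and 7.36 in wild-type lungs, so the wild-type lungs differed widely among themselves, and the difference was -0.56 or -1.66 when wild-type replicate 3 or 2 was left out.

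**Figure D4:**
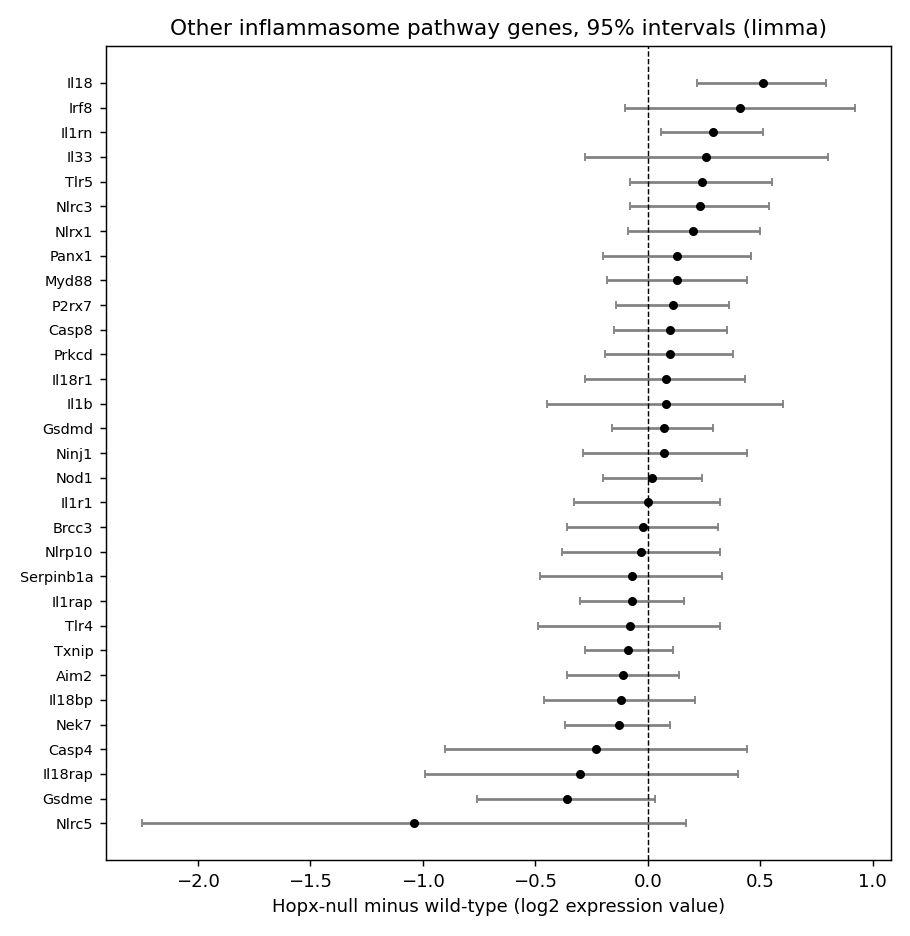
Difference between Hopx-null and wild-type lungs (horizontal axis, log2 expression value) with 95% intervals from limma for the 31 further pathway genes whose brightest probe set lay above the lower quartile of the array means. Points lie on both sides of 0, from -1.04 for Nlrc5 to 0.51 for Il18, and the intervals of Il18 and Il1rn do not reach 0, though neither gene passed after adjustment.

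Inflammasome genes are used by macrophages and granulocytes, among other cells. In a whole lung, more cells that express a gene and more RNA per cell cannot be told apart, and cell types were not separated. Of 18 macrophage markers, all measured and none at or below the lower quartile, 10 were higher and 8 lower in Hopx-null lungs at their brightest probe sets, and 0 passed limma (eBayes, Benjamini-Hochberg). Their summed linear signal was 29646 to 31161 units in Hopx-null lungs and 27870 to 30779 in wild-type lungs. Such a sum weighs the brightest genes most, here Lyz2 and Csf1r with means of 13.03 and 12.57. The macrophage gene Adgre1 read 7.69, 7.56 and 7.90 in Hopx-null lungs, against 7.54, 7.39 and 7.85 in wild-type lungs, with replicate 3 highest in each genotype, as for Naip6 and Casp1. Csf1r, the receptor that macrophages need, had another order, with wild-type replicate 3 the lowest lung. It read 12.77, 12.56 and 12.66 in Hopx-null lungs, against 12.68, 12.53 and 12.23 in wild-type lungs. Csf1r differed by 0.18 (95% interval -0.14 to 0.50), and the complement gene C1qa by -0.30 (95% interval -0.65 to 0.05). The 3 of 28 macrophage probe sets at an unadjusted p under 0.05, against 4.77% of all probe sets, were the other complement C1q genes, at -0.29 and -0.33 for C1qb and -0.38 for C1qc, all lower in Hopx-null lungs.

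Granulocyte markers were measured for 9 of 10 genes, 6 higher and 3 lower, with Elane at or below the lower quartile and 0 passing limma. The antimicrobial peptide gene Camp was the 1 of 9 at an unadjusted p under 0.05 (limma), against 4.77% of all probe sets. Camp was higher in Hopx-null lungs by 0.54 (95% interval 0.03 to 1.05), with overlap between genotypes. The granulocyte genes Ngp and Ltf differed by 0.42 (95% interval -0.06 to 0.90) and 0.39 (95% interval -0.47 to 1.26), and Mpo by -0.46 (95% interval -1.21 to 0.29). The summed signal of the granulocyte markers was 18966 to 23287 units in Hopx-null lungs and 18245 to 22509 in wild-type lungs. That sum weighs S100a8 and S100a9 most, which are abundant in neutrophils and had means of 12.85 and 13.26. S100a8 and S100a9 differed by 0.04 (95% interval -0.26 to 0.33) and 0.05 (95% interval -0.24 to 0.34). Of 8 general leukocyte markers, all 8 were higher at their brightest probe sets with a median log2 difference of 0.10 and 0 passing (limma; 1 of 14 probe sets, of Cd53, at an unadjusted p under 0.05, against 4.77% of all probe sets), with Itgam at or below the lower quartile. Of the 14 leukocyte probe sets, 3 stood wholly above wild-type, in Cd53, Itgam and Rac2, and 0 wholly below, against 5.6% and 4.54% of all probe sets. Those of Cd53 and Itgam had means of 2.61 and 4.02, below the lower quartile of 4.29. This Cd53 probe set was also the one with the low unadjusted p. At its bright probe set Cd53 overlapped between genotypes, with a log2 difference of 0.09 (95% interval -0.25 to 0.42). The summed signal of the 8 leukocyte markers was 6364 to 7427 units in Hopx-null lungs and 5742 to 6919 in wild-type lungs. Ptprc, which marks all leukocytes, differed by 0.11 (95% interval -0.11 to 0.33). The summed signal of the 6 inflammasome genes was 913 to 944 units in Hopx-null lungs and 677 to 870 in wild-type lungs. The inflammasome genes were chosen with this contrast known, so nothing is drawn from setting their sums beside those of the markers. The ranges of the 3 marker lists overlapped between genotypes. The part of leukocyte content in the inflammasome values was not tested.

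**Figure D5:**
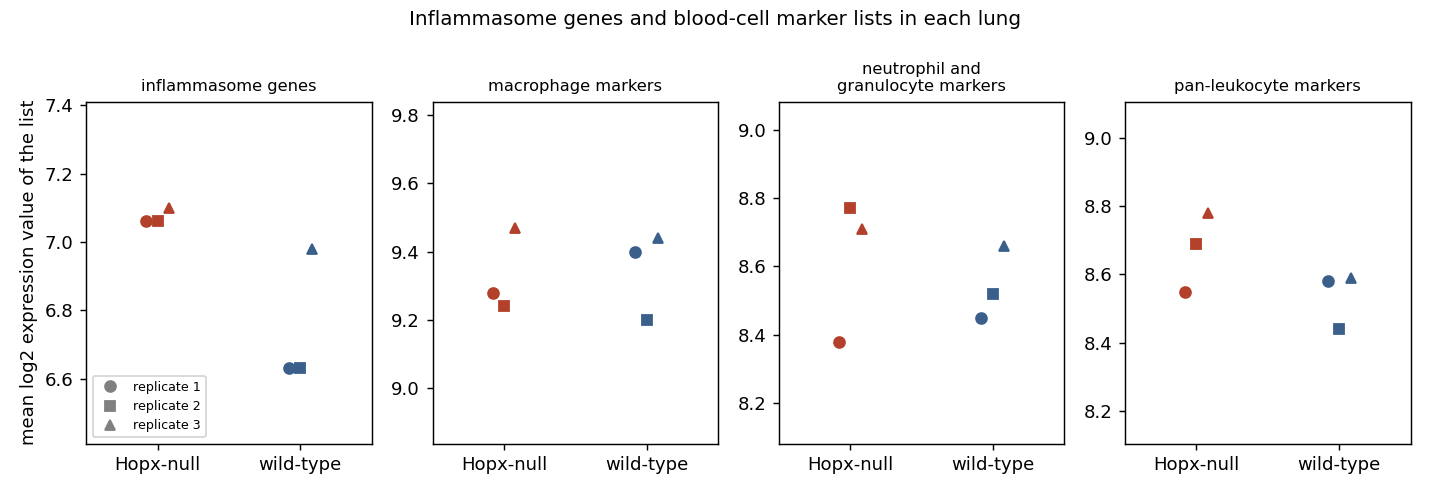
Mean log2 expression value (vertical axis, spanning 1 log2 unit in each panel) of the 6 inflammasome genes and of 3 leukocyte marker lists in each Hopx-null lung (red, left) and wild-type lung (blue, right), with the brightest probe set of each gene and marker shape giving the replicate. The inflammasome mean was 7.06 to 7.10 in Hopx-null lungs and 6.63 to 6.98 in wild-type lungs, and the groups overlap in each of the 3 marker panels.

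The genes whose values over the 6 lungs were most like those of Naip5 were ranked by Pearson's r among 4672 single-gene probe sets above the median that varied at least 0.5 times as much. They were Nr4a1, a nuclear receptor of the immediate-early class (r = 0.950), Paqr7, a membrane progestin receptor (r = 0.943), the diacylglycerol kinase Dgke (r = 0.937), the kinesin Kif5b (r = 0.936) and the importin Ipo9 (r = 0.931). Nr4a1 read 8.29, 8.76 and 8.20 in Hopx-null lungs, against 7.33, 7.24 and 7.88 in wild-type lungs, with wild-type replicate 3 the highest wild-type lung as in Naip5. None of the 5 lies among the neighbours of the cluster. For the brightest Pycard probe set the nearest among 12847 were Zdhhc2 (r = 0.986), Sncaip (r = 0.979), Dnah11 (r = 0.978), Ctnnd1 (r = 0.977) and Smox (r = 0.973), and 27 probe sets reached an r of 0.95. With 6 lungs that share the genotype contrast and this many probe sets ranked, such values are a description of likeness only.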

How the data were processed

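The deposited table held log2 expression values of 6 arrays. Per the submitters' processing notes the tools were RMA and Partek 6.6. The base 2 follows from RMA's convention and fits values of 1.79 to 14.27. RMA equalises the arrays' distributions and so hides a shift common to most transcripts. Per the labels' protocols, RNA was primed from the poly(A) tail and amplified. The number of arrays limits the precision.

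Of 45101 probe sets, 64 controls were left out. The platform annotation gave 34945 probe sets 1 gene, 932 several and 9160 none. The genotype contrast was fitted without a filter in limma 3.58.1 under R 4.3.3 (lmFit, eBayes), and p-values were adjusted by Benjamini-Hochberg over all 45037 probe sets. The procedure was tested on simulated data. Promoter windows were aligned with Biopython 1.88, and summed signals add 2 to the power of the log2 values of each gene's brightest probe set. The members and gene lists were chosen with earlier results of these data known. All member probe sets were named. Xist was also named, after its values were seen. Of the further pathway genes and the neighbours, the 3 with the largest difference in each direction above the lower quartile were named. So were 13 immune genes in every case, Smn1 and Ocln as the nearest neighbours, and the 5 probe sets most like 2 member probe sets. Nkx2-1, Tbx5, Bdp1, C1qb, C1qc, Lyz2, Camp, Ngp, Ltf, Mpo, Cd53, Itgam and Rac2 were added after their values were seen. Alternatives changed the normalization, the filter and the variance model, weighted the arrays, blocked on the replicate number, took Y-linked expression as covariate, or left out each lung.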

Additional observations from a re-analysis of the deposited data

How the results depend on the processing

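The 2 probe sets called over the whole table, both of Hopx, became 1 with the replicate block and 1 with the Y-linked mean as covariate, and 1 to 23 when a lung was left out (12 for Hopx-null replicate 1, 23 for wild-type replicate 1) (limma, Benjamini-Hochberg). Without wild-type replicate 1, all Hopx-null lungs read as female and all remaining wild-type lungs as male. Sex and genotype cannot be told apart in that run. Deviations from the group means of lungs with the same replicate number correlated at r = -0.0958, -0.121 and 0.183 over probe sets. Pairs with different numbers lay between -0.148 and 0.237. With 3 lungs per genotype, these values cannot decide whether the numbers pair the lungs. The other alternatives left that count at 2. No probe set of the inflammasome genes, of the further pathway genes or of the neighbours of the Naip cluster was called in any alternative run, a threshold of 0.1 included. The filters and the replicate block leave the difference of a probe set unchanged by construction, so those runs could not move it. Of 104 recomputed differences of the inflammasome probe sets, those runs included, 100 moved by less than the spread between replicates. Only 1 changed sign, Casp1 at -0.01 without wild-type replicate 2. The other 3 were larger with the Y-linked mean as covariate, 0.44 for Nlrp3 and 0.50 and 0.39 for the 2 brightest Pycard probe sets. By construction, that covariate leaves wild-type replicate 1 as the comparator. The number of inflammasome probe sets higher in Hopx-null lungs was 7 without wild-type replicate 2. A filter at the median of the array means removed 3 of the 8 and left 5, all higher. The median difference over the probe sets lay between 0.17 and 0.34 over the lungs left out (wild-type replicates 1 and 3 at the ends), and was 0.41 with the Y-linked mean as covariate. With 3 lungs against 3, a two-sided exact permutation test cannot give a p below 0.1.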
